A study of Mus musculus with 35 samples.

Results

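The messenger RNA levels of 10 genes of glycolysis and glucose transport were followed across CD8 T cell development in mice with and without a floxed Dot1l gene. The genes were the glucose transporters Slc2a1 and Slc2a3, the hexokinases Hk1 and Hk2, the phosphofructokinases Pfkp and Pfkl, and Aldoa, Eno1, Pkm and Ldha. They were found by matching the Ensembl identifiers of the count table to these mouse symbols, and all 10 were among its 52636 genes. Dot1l encodes the enzyme that methylates lysine 79 of histone H3. CD8 T cells were sorted by flow cytometry from C57BL/6 mice as CD8 single-positive cells of the thymus, as naive cells of the spleen (CD44- CD62L+) and as memory cells of the spleen (CD44+ CD62L+). The genotypes were Lcre+/-;Dot1Lfl/fl (KO), Lcre+/-;Dot1Lfl/wt (Het) and Lcre+/-;Dot1Lwt/wt (WT), so the WT cells carry the Cre transgene too. This Cre is driven by the promoter of Lck, a kinase of the T lineage, so it acts from early thymocytes on. Each of the 9 combinations of genotype and subset had 4 libraries, apart from WT thymus with 3, which makes 35 libraries in all. Raw counts per gene were compared, and a library held between 4809509 and 16879636 counts (median 10406516).

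Glucose enters T cells through facilitative transporters of the plasma membrane, mainly those encoded by Slc2a1 (GLUT1) and Slc2a3 (GLUT3). Hexokinase traps it by phosphorylation, phosphofructokinase commits it to glycolysis, aldolase splits the sugar, and enolase and pyruvate kinase yield pyruvate, which lactate dehydrogenase can reduce to lactate. Quiescent T cells run this pathway at a low rate. Proliferating thymocytes and activated T cells raise it, through MYC, HIF1A and mTOR signalling, and memory cells are known for a quick return to it.

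The promoters of both hexokinases and of Ldha are shown because Hk2 carried the strongest genotype difference, Hk1 is its abundant partner, and Ldha is a textbook target of hypoxia-inducible factor. The letters searched were ACGTG on either strand, and capitals mark each match (CACGT is the same motif on the other strand). ACGTG is a form of the core that hypoxia-inducible factors recognise, which can also begin with G. That other form, GCGTG, was not searched and is left unmarked where it occurs. The windows run from 250 bases before to 50 bases after each RefSeq start, on GRCm38.p6, 5′ to 3′ on the gene's strand. Hk2 lies at chr6:82774405-82774704 on the minus strand. Hk1 has an upstream start at chr10:62379859-62380158 and a downstream start at chr10:62340372-62340671, both on the minus strand. The Ldha window shown is chr7:46845554-46845853 on the plus strand. Another Ldha window, chr7:46846832-46847131, is not shown.
Hk2: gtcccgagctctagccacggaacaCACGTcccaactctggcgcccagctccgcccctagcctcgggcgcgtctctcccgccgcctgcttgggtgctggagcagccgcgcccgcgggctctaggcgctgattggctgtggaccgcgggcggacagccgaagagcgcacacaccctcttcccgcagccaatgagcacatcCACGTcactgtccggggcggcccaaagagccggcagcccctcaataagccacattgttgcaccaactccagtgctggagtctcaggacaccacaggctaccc
Hk1 upstream start: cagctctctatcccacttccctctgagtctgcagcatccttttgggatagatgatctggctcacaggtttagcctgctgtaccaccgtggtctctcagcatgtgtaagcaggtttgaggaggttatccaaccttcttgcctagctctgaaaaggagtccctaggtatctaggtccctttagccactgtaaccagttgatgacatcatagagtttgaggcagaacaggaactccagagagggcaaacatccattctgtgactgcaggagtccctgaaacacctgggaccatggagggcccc
Hk1 downstream start: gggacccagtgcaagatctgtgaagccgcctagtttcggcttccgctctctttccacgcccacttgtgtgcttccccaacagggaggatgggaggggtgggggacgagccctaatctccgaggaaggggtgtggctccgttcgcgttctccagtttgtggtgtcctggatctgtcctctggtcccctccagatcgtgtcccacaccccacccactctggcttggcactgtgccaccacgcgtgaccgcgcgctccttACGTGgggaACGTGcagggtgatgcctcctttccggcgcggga
Ldha: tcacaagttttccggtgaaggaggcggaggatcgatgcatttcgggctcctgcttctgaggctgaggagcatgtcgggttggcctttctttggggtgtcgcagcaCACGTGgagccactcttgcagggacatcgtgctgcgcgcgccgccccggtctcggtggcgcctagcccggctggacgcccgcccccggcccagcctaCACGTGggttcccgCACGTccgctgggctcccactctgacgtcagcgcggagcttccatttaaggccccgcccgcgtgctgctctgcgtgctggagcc
Hk2 had 2 matches, the upstream Hk1 window 0 and the downstream one 2. The Ldha window shown had 5, counting both strands of the palindrome CACGTG, which overlaps ACGTG, and the Ldha window not shown had 0. Of the 10 genes 9 had a RefSeq entry, and 6 of those 9 (Slc2a1, Hk1, Hk2, Aldoa, Pkm and Ldha) held ACGTG in at least 1 window. Among all genes with such windows 21.8% did. A gene with more windows has more places for a match. Counted by window, 7 of the 16 windows of the 9 genes held ACGTG, against 19.6% of all windows. Some windows of the same gene overlap. CACGTG was found in Ldha alone among the 9, against 8.09% of all genes. A match in these letters is a description of the sequence and not evidence of binding.

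All 10 genes passed the filter on low counts, with means between 80.5 counts per library (Hk2) and 5533 (Pkm). Hk2 was the single member with few counts, between 15 and 265 per library. In GRCm38, Slc2a1 lies on chromosome 4 (119108711 to 119137983), Slc2a3 on 6 (122727809 to 122801640), Hk1 on 10 (62268855 to 62379908), Hk2 on 6 (82725025 to 82774454) and Pfkp on 13 (6579768 to 6648777). Pfkl lies on chromosome 10 (77986947 to 78010083), Aldoa on 7 (126795234 to 126800751), Eno1 on 4 (150236721 to 150248879), Pkm on 9 (59656368 to 59679375) and Ldha on 7 (46841475 to 46855627), and counts refer to reads over exons. Several members have near-identical copies elsewhere: of all 65-base windows of their transcripts, 24.1% for Eno1, 20.8% for Pkm, 4.2% for Ldha and 2.2% for Aldoa also occur in another gene. Pkm also shares 15.3% of its exon bases with the overlapping Gm49759 on its strand. The levels of Eno1 and Pkm are uncertain to that extent, as are those of Gapdh, with 23.4% of its windows shared and a mean of 31.3 counts.

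Some properties of the whole data set bear on what follows. Dot1l itself was not lower in KO libraries: it averaged 77.3, 69.2 and 67.0 CPM (depth-scaled counts, with TMM factors) in KO, Het and WT thymus, 55.7, 52.2 and 49.5 CPM in naive cells and 45.8, 47.6 and 45.4 CPM in memory cells. The labels do not say which exons are floxed, so whole-gene counts give no check of the deletion. Summed T cell and CD8 marker levels lay between 1081 and 1526 CPM in every library. Lck (a mean of 10191 counts per library) and Cd3e (2483) make up much of that sum, whereas Cd8a (92), Cd8b1 (57.5) and Cd3d (21.3) had few counts, so the sum says little of the CD8 identity. Summed myeloid, natural killer and erythroid markers stayed at or below 11.3, 0.42 and 83.7 CPM. Among naive KO libraries, replicate 4 had the highest summed level of B cell markers (261 CPM) and replicate 3 the highest of memory and effector markers (804 CPM), so results in naive KO cells were also computed without both. Centring all libraries on their mean log2 level instead of TMM gave a median KO over WT log2 change of all genes of -0.09, -0.11 and -0.10 in the subsets from thymus to memory, against 0.02, 0.00 and 0.01 under TMM. It turned the split of all calls to 886 higher and 1342 lower in thymus (1222 and 697 under TMM), 886 and 1612 in naive (1147 and 732) and 1019 and 1812 in memory cells (1323 and 960). Whether replicates are separate animals is not stated in the labels, and a p-value here covers library-to-library spread, which may be technical. Less RNA per cell and fewer cells of a type cannot be told apart in such bulk samples.

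Per length of exon, Pkm was the most abundant of the 10 transcripts at 102.5 RPKM (counts per kilobase of exon, depth-scaled) over all libraries, followed by Aldoa at 72.9 and Eno1 at 58.5 RPKM. Hk1 stood at 20.4, Slc2a1 at 10.1 and Ldha at 9.30 RPKM. Pfkl, Slc2a3, Pfkp and Hk2 were low, at 4.17, 2.44, 2.15 and 1.24 RPKM. The strand setting and annotation of the counting are not given, and transcripts that are usually abundant, such as Gapdh (31.3 counts) and Cd8a (92), had few counts, so levels and ranks between genes, that of Ldha included, are uncertain. Hk2, the lowest, varied most among the 9 groups, with a 6.01-fold span between the highest and the lowest group mean. The span was 2.18-fold for Slc2a1, 1.95-fold for Pfkp and 1.87-fold for both Aldoa and Slc2a3. It was 1.68-fold for Pfkl, 1.65-fold for Pkm, 1.55-fold for Ldha, 1.505-fold for Eno1 and 1.29-fold for Hk1. When the 9 groups were ordered by their mean for each gene, 71 of the 80 neighbouring pairs overlapped in their library values. The same share over all tested genes was not computed, so this count does not set the 10 genes apart. Of the 9 gaps 5 lay between subsets. The other 4 set KO thymus above Het thymus and KO naive above WT naive for Hk2, KO memory above Het memory for Slc2a3 and KO thymus above Het thymus for Pfkp.

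**Figure D1:**
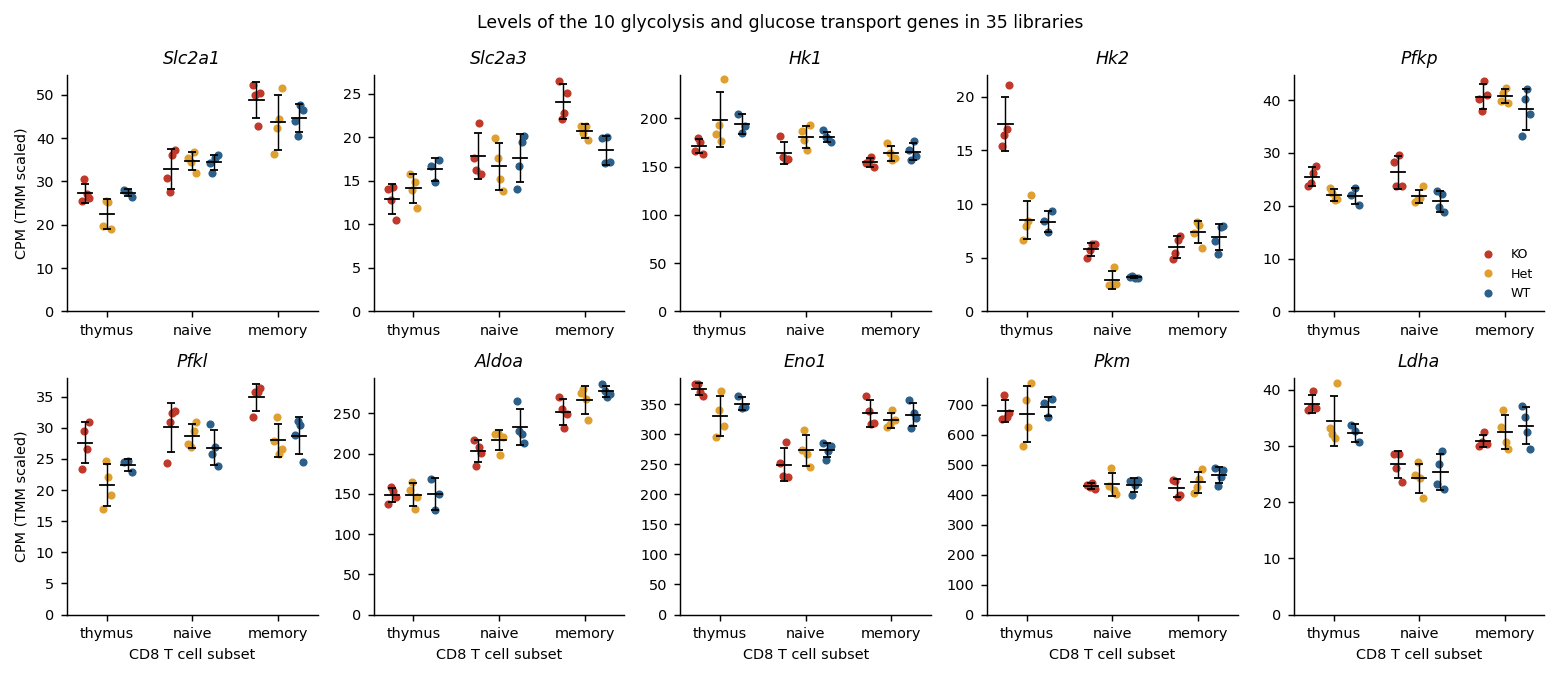
Level of each of the 10 genes (y axis, CPM scaled by TMM, linear from 0) in every library, grouped by subset on the x axis, with KO, Het and WT from left to right; points are libraries, bars the mean and SD of 3 or 4 libraries. Hk2 in KO thymus, at 15.4 to 21.1 CPM, lies above all other groups, while the genotypes of most other genes overlap within a subset.

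The first question was whether loss of Dot1l changes these transcripts within a subset. Hk2 rose 2.11-fold in KO thymus and 1.81-fold in KO naive cells and was not called in memory cells. Hk2 encodes the inducible hexokinase that T cells raise on activation, whereas Hk1 encodes the constitutive form. Pfkp rose slightly in KO naive cells and Slc2a3 in KO memory cells. Aldoa, Eno1, Pkm, Ldha, Slc2a1, Hk1 and Pfkl did not pass the test in any of the 3 KO against WT comparisons. Genes were called at a Benjamini-Hochberg adjusted p under 0.05 over 10296 tested genes in edgeR's quasi-likelihood test. In thymus 1 of the 10 genes was called, against 18.6% of all tested genes. In naive cells 2 were called (18.2% of all genes), and in memory cells 1 was called (22.2% of all genes). The 10 genes had a median log2 fold change of 0.05, -0.01 and -0.04 in the 3 subsets from thymus to memory, where the median of all tested genes was 0.02, 0.00 and 0.01.

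Hk2 was at 15.4, 16.5, 17.0 and 21.1 CPM in KO thymus, at 6.64, 7.98, 8.45 and 10.9 CPM in Het thymus, and at 8.39, 7.38 and 9.31 CPM in WT thymus. Every KO library stood above every Het and WT library. The log2 fold change of KO over WT was 1.07 ± 0.17 (SE), with an adjusted p of 6.23e-06 (edgeR), and it lay between 0.97 and 1.16 in all 16 alternative analyses, each of which called it. In the naive subset Hk2 was lower throughout, at 4.98, 5.70, 6.24 and 6.30 CPM in KO cells, 2.46, 2.48, 4.14 and 2.58 CPM in Het cells and 3.25, 3.32, 3.12 and 3.14 CPM in WT cells. Again no KO library overlapped a Het or WT one. The naive KO over WT log2 fold change was 0.85 ± 0.19 (adjusted p = 0.00105, edgeR), and all 18 alternatives called it, the one without naive KO replicates 3 and 4 included. In memory cells Hk2 was at 4.88, 5.44, 6.70 and 7.05 CPM in KO, 7.29, 8.33, 8.01 and 5.95 CPM in Het and 6.52, 5.36, 7.90 and 7.98 CPM in WT. The 3 genotypes overlapped there, and the KO over WT log2 fold change of -0.22 ± 0.17 did not pass the test (adjusted p = 0.419, edgeR).

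The KO over WT effect on Hk2 was 1.07 log2 units smaller in memory than in naive cells (-1.07 ± 0.26, adjusted p = 0.0139 for the interaction, edgeR), and Hk2 was the only member with such a difference, where 1.79% of all genes were called. Without naive KO replicates 3 and 4 the difference was -0.95 with an adjusted p of 0.112. It was called in the other 25 of 26 alternatives, whose adjusted p, with that one, lay between 0.00403 and 0.112. Between naive and thymus the effect differed for 0 of the 10 genes (6.34% of all genes were called). There 1 gene had an unadjusted p under 0.05, and DESeq2 called 0.

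Markers of dividing cells moved with the thymus difference. As background for the counts below, 18.6, 18.2 and 22.2% of all genes were called in KO against WT from thymus to memory. Of the 10296 tested genes 1222, 1147 and 1323 were called higher. Of 20 tested proliferation genes 15 rose in KO thymus and 0 fell, and their summed level was 2844 to 3466 CPM in KO thymus and 1534 to 2056 CPM in WT thymus. Of the same 20 genes 1 rose in naive KO cells, where the sums were 425 to 503 CPM in KO and 401 to 448 CPM in WT, and 8 rose in memory KO cells (738 to 789 CPM in KO, 437 to 581 CPM in WT), where Hk2 did not. All 6 memory and effector markers rose in naive KO cells, with sums of 310 to 804 CPM against 74.0 to 135 CPM in naive WT cells. In thymus 5 of these 6 rose (71.5 to 114 CPM in KO, 19.8 to 29.4 CPM in WT). In memory cells 3 of the 6 rose, with sums of 1440 to 1636 CPM in KO and 653 to 826 CPM in WT that did not overlap, and Hk2 was not called there. Ccl5 made up much of that memory cell sum (946 and 325 CPM on average in KO and WT). Eomes (315 and 181 CPM), Tbx21 (211 and 164 CPM) and Il2rb (34.4 and 24.3 CPM) also averaged higher in KO. Cd44 (28.2 and 28.4 CPM) and Cxcr3 (6.95 and 8.29 CPM) did not. The 12 B cell markers summed to 13.6 to 261 CPM in naive KO cells and 14.9 to 113 CPM in naive WT cells, with 0 of the 12 at 0 in either group and 0 of 9 tested ones called. The 6 thymocyte markers summed to 103 to 129 CPM in KO thymus and 213 to 239 CPM in WT thymus. Among them Rag1 was called higher in KO thymus (1.21), Ccr9 (-1.13) and Sox4 (-1.28) lower, and Dntt was not called. The 5 naive markers summed to 3003 to 3215 CPM in KO thymus and 4695 to 5204 CPM in WT thymus. Their sums were lower in KO memory cells too (2756 to 3057 against 3453 to 3865 CPM). The part of any of these marker genes in the Hk2 result was not tested.

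**Figure D2:**
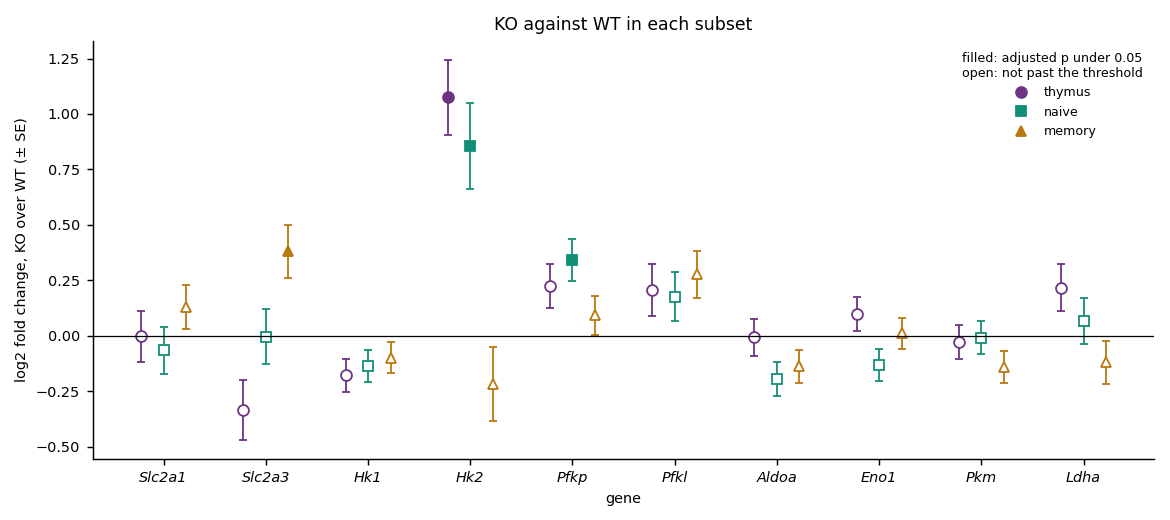
Log2 fold change of KO over WT (y axis, with its SE) for each of the 10 genes (x axis) in thymus, naive and memory cells; filled symbols passed an adjusted p of 0.05 and open ones did not. Hk2 stands at 1.07 in thymus and 0.85 in naive cells and at -0.22 in memory cells, and the other genes lie between -0.33 and 0.38.

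Hk1, the constitutive hexokinase, was between 163 and 180 CPM in KO thymus, 177 and 241 CPM in Het thymus and 185 and 205 CPM in WT thymus. All KO libraries lay below all WT libraries, but the log2 fold change of -0.18 ± 0.08 missed the threshold (adjusted p = 0.0983, edgeR). The changes in naive (-0.14 ± 0.07) and memory cells (-0.10 ± 0.07) had the same sign and did not pass either. With mean log centring Hk1 was called lower in thymus, naive and memory cells (adjusted p = 0.00826, 0.0115 and 0.0323, edgeR). Against Het thymus Hk1 was called lower (-0.22 ± 0.07, adjusted p = 0.025, edgeR), a call that rests on single libraries. Without Het thymus replicate 4, the highest library of all at 241 CPM, the change was -0.11 with an adjusted p of 0.249, and without KO thymus replicate 1 or 4 the adjusted p was 0.0639 or 0.0788. Over the alternatives it lay between 0.00163 and 0.249.

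With Hk1 nearly level, the hexokinase mixture followed Hk2. Per exon length, Hk2 made up 12.7 ± 1.84% of hexokinase counts (Hk1, Hk2 and Hk3 together) in KO thymus, 5.71 ± 0.62% in Het thymus and 5.77 ± 0.571% in WT thymus (SD, n = 4, 4 and 3). It made up 4.78 ± 0.764% in KO naive, 2.25 ± 0.766% in Het naive and 2.46 ± 0.0629% in WT naive cells, and 5.21 ± 0.86%, 6.03 ± 0.862% and 5.58 ± 0.825% in KO, Het and WT memory cells (SD, n = 4 each). Hk1 therefore provided at least 83.3% of hexokinase transcripts in each of the 35 libraries. Hk3 averaged 1.47% at most in any group.

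Phosphofructokinase, which commits sugar to glycolysis, is built from platelet-type (Pfkp), liver-type (Pfkl) and muscle-type (Pfkm) subunits. Pfkp was at 28.3, 23.7, 29.7 and 23.7 CPM in KO naive, 20.7, 21.2, 21.5 and 23.6 CPM in Het naive and 22.7, 19.7, 22.2 and 18.7 CPM in WT naive cells. All KO libraries lay above all WT libraries, 2 of them by less than 1 CPM. The KO over WT log2 fold change was 0.34 ± 0.09 (adjusted p = 0.00735, edgeR), and 15 of 18 alternatives called it. Without WT naive replicate 4 it was 0.28 with an adjusted p of 0.0637, and without KO replicates 3 and 4 it was 0.32 with an adjusted p of 0.0604, in a range over the alternatives of 0.00288 to 0.0799. Mean log centring gave 0.23 with an adjusted p of 0.0799 (edgeR). In thymus (0.22 ± 0.10) and memory cells (0.09 ± 0.09) the change did not pass.

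Pfkl was at 31.7, 35.8, 35.7 and 36.4 CPM in KO memory, 27.8, 31.7, 25.8 and 26.6 CPM in Het memory and 28.9, 31.0, 30.5 and 24.6 CPM in WT memory cells. Each KO library was above each WT library, and the lowest KO library was level with the highest Het one. Against WT the log2 fold change was 0.28 ± 0.11 and narrowly missed the threshold (adjusted p = 0.0547, edgeR), and 6 of 17 alternatives called it, among them those without KO memory replicate 1 (0.32, adjusted p = 0.0409) or WT memory replicate 2 (0.32, adjusted p = 0.0472). The adjusted p ranged from 0.0303 to 0.286 over the alternatives.

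Of the phosphofructokinase transcripts per length, Pfkm made up the largest share, and Pfkl and Pfkp together the rest. Mean counts per library were closer, at 413 for Pfkm, 307 for Pfkp and 295 for Pfkl. The shares thus depend on the exon lengths used, of 3340, 13401 and 6675 bases. Pfkm also shares 10.2% of its exon bases with Gm26513 on its strand and 8.4% of its 65-base windows with another gene. Pfkm stood at 69.5 ± 0.981% in KO thymus, 76.4 ± 2.14% in Het thymus and 75.7 ± 1.496% in WT thymus (SD, n = 4, 4 and 3). In memory cells the Pfkm share was 52.7 ± 2.60%, 54.4 ± 1.13% and 55.3 ± 3.68% in KO, Het and WT, with the values of the genotypes overlapping. In naive cells it lay between, at 63.8 ± 3.78%, 63.6 ± 1.22% and 65.2 ± 3.07% in KO, Het and WT (SD, n = 4 each).

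**Figure D3:**
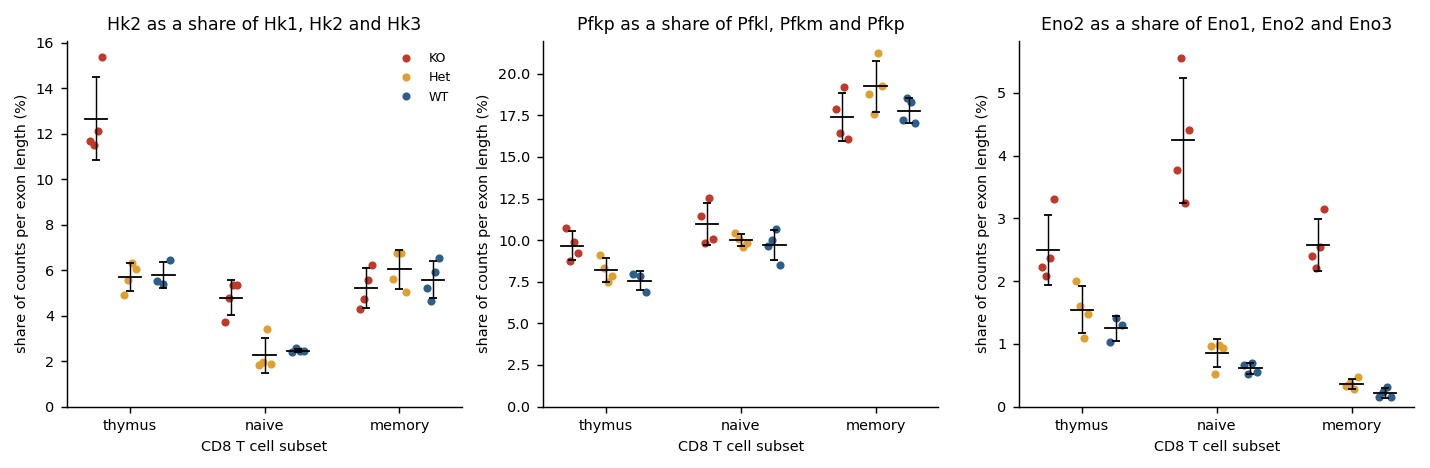
Share of each enzyme's counts per exon length (y axis, %, from 0) given by Hk2, Pfkp and Eno2 in every library, grouped by subset (x axis) with KO, Het and WT from left to right; bars are mean and SD of 3 or 4 libraries. Hk2 reaches 12.7% in KO thymus, the Pfkp share changes with subset more than with genotype, and Eno2 is higher in KO than in WT in all 3 subsets.

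Slc2a3, the high-affinity transporter GLUT3, was at 26.4, 22.1, 22.8 and 25.1 CPM in KO memory, 21.3, 20.5, 21.3 and 19.7 CPM in Het memory and 20.0, 17.0, 20.0 and 17.1 CPM in WT memory cells. No KO library overlapped a Het or WT library. The KO over WT log2 fold change was 0.38 ± 0.12 (adjusted p = 0.0161, edgeR), and it was called in 13 of 17 alternatives. Without KO memory replicate 1 the adjusted p was 0.0697 (0.33), without WT memory replicate 2 it was 0.0576 (0.34) and without WT memory replicate 4 it was 0.057 (0.34), over a range of 0.00703 to 0.0935. Mean log centring gave 0.27 with an adjusted p of 0.0935 (edgeR). Marker genes differed between KO and WT memory cells too. Of the 4 CD4 T cell markers 2 were tested and 1 rose, where 22.2% of all genes were called. The 4 summed to 13.5 to 25.0 CPM in KO memory and 5.17 to 6.21 CPM in WT memory cells. Nearly all of that sum was Zbtb7b (18.3 and 5.55 CPM on average), with Cd4 itself at 0 in both groups. Memory and effector markers (1440 to 1636 CPM in KO, 653 to 826 CPM in WT) and proliferation genes (738 to 789 CPM in KO, 437 to 581 CPM in WT) were higher in KO memory cells too, and their part in the Slc2a3 result was not tested. Ccl5 made up much of the memory and effector sum. That sum was also higher in KO thymus (71.5 to 114 against 19.8 to 29.4 CPM in WT) and KO naive cells (310 to 804 against 74.0 to 135 CPM in WT). The proliferation sum was higher in KO thymus as well (2844 to 3466 against 1534 to 2056 CPM). Slc2a3 was not called higher in either of these subsets. In thymus Slc2a3 was at 10.5 to 14.3 CPM in KO, 11.9 to 15.8 CPM in Het and 14.8 to 17.4 CPM in WT, with a log2 fold change of KO over WT of -0.33 ± 0.13 that missed the threshold (adjusted p = 0.0792, edgeR). With mean log centring the lower level in KO thymus was called (-0.44, adjusted p = 0.015, edgeR). The naive log2 fold change was -0.0047 ± 0.12. Slc2a1, the basal transporter GLUT1, showed KO over WT log2 fold changes of -0.0025 ± 0.11, -0.07 ± 0.11 and 0.13 ± 0.10 in thymus, naive and memory cells, none of which passed.

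The enzymes of the lower pathway differed little between genotypes. Pkm, the pyruvate kinase gene, had log2 fold changes of KO over WT of -0.03 ± 0.08, -0.01 ± 0.07 and -0.14 ± 0.07 in thymus, naive and memory cells. Eno1, the main enolase, had 0.10 ± 0.08, -0.13 ± 0.07 and 0.01 ± 0.07. Ldha, which makes lactate from pyruvate, had 0.22 ± 0.11, 0.07 ± 0.10 and -0.12 ± 0.10. Aldoa, the main aldolase, had -0.01 ± 0.08, -0.20 ± 0.08 and -0.14 ± 0.08. None of these 12 values passed the test. Aldoa in naive cells was the nearest (adjusted p = 0.0683, edgeR): its libraries were at 185 to 217 CPM in KO, 198 to 225 CPM in Het and 214 to 265 CPM in WT, overlapping slightly. Aldoa was called in 5 of 18 alternatives, among them those without KO naive replicate 1 (-0.23, adjusted p = 0.048) or WT naive replicate 4 (-0.25, adjusted p = 0.0295), with adjusted p between 0.00437 and 0.269. Eno1 in naive cells was called without KO naive replicate 3 (-0.21, adjusted p = 0.0436), in a range of 0.00992 to 0.495. With mean log centring Aldoa was called lower in naive and memory cells, Eno1 in naive cells and Pkm in memory cells.

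No difference was detected in these genes with a single floxed allele. Het against WT called 0 of the 10 genes with edgeR in each of the 3 subsets, and DESeq2 also called 0. Of all tested genes 0, 0 and 0.00971% were called. At an unadjusted p under 0.05 there was 1 member in thymus (Slc2a1, -0.28 ± 0.11) and 0 in either spleen subset. Against Het, KO thymus had 3 called members (19.1% of all genes): Hk2 (1.05 ± 0.15, adjusted p = 1.80e-06, edgeR), Pfkl (0.41 ± 0.11, adjusted p = 0.00531, edgeR) and Hk1, lower as described. Pfkl was at 23.4, 29.4, 26.6 and 30.9 CPM in KO thymus and 17.0, 24.6, 22.1 and 19.3 CPM in Het thymus, so 1 KO library fell among the Het ones. Slc2a1 joined when Het thymus replicate 2 (0.35, adjusted p = 0.0249) or 3 (0.34, adjusted p = 0.0302) was left out, and Eno1 without Het thymus replicate 3 (0.25, adjusted p = 0.0131), with ranges over the alternatives of 0.0249 to 0.224 for Slc2a1 and 0.0131 to 0.45 for Eno1. The KO libraries are the same in both contrasts, so the KO against Het and KO against WT values are not independent.

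In naive cells KO against Het called 2 members (16.9% of all genes). Hk2 had 1.01 ± 0.19 with an adjusted p of 0.000103 (edgeR) and was called in all 18 alternatives. Pfkp had 0.27 ± 0.09 with an adjusted p of 0.0342 (edgeR) but was called in 9 of 18 alternatives only. Leaving out KO naive replicate 1 or 3 gave Pfkp adjusted p values of 0.118 and 0.169, and leaving out Het naive replicate 1, 2 or 3 gave 0.102, 0.0799 and 0.0721, in a range of 0.0194 to 0.217. Eno1 was called lower without KO naive replicate 3 (-0.20, adjusted p = 0.048), in a range of 0.0145 to 0.625. In memory cells KO against Het called 1 member (20.2% of all genes), Pfkl with 0.32 ± 0.11 (adjusted p = 0.0287, edgeR). Pfkl lost the call without KO memory replicate 2 (0.0744), 3 (0.0808) or 4 (0.0791) and without Het memory replicate 1 (0.0568), 3 (0.105) or 4 (0.0899), as adjusted p values in a range of 0.0184 to 0.189.

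More of the 10 genes were called between subsets than between genotypes. Memory cells had more Slc2a1, Pfkp, Aldoa and Eno1 than naive cells in each of the 3 genotypes, and 0 of the 10 genes were lower in memory cells in any genotype. In KO cells 5 members rose (17.3% of all genes were called, 8.69% as higher and 8.61% as lower). In Het cells 6 rose (16.9%, with 8.31% higher and 8.57% lower), and in WT cells 6 rose (15.1%, with 7.68% higher and 7.38% lower). The median log2 fold change of memory over naive for the 10 genes was 0.26, 0.30 and 0.27 in KO, Het and WT, and that of all tested genes was 0.01, 0.00 and 0.00.

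Pfkp, the platelet-type phosphofructokinase, rose in every genotype. It was at 37.9 to 43.6 CPM in KO memory and 23.7 to 29.7 CPM in KO naive cells, at 39.4 to 42.3 and 20.7 to 23.6 CPM in Het memory and Het naive, and at 33.2 to 42.1 and 18.7 to 22.7 CPM in WT memory and WT naive. Memory and naive values did not overlap in any genotype, and the log2 fold changes were 0.63 ± 0.09, 0.90 ± 0.09 and 0.88 ± 0.09 in KO, Het and WT (adjusted p = 7.94e-07, 2.56e-10 and 8.75e-10, edgeR). Slc2a1 was at 42.8 to 52.2 CPM in KO memory and 27.5 to 37.2 CPM in KO naive cells, and at 40.4 to 47.6 CPM in WT memory and 31.9 to 36.0 CPM in WT naive cells. Its log2 fold changes were 0.57 ± 0.10, 0.33 ± 0.10 and 0.37 ± 0.10 in KO, Het and WT. The Slc2a1 difference in Het cells missed the threshold without Het naive replicate 4 (0.29, adjusted p = 0.0759) or Het memory replicate 4 (0.24, adjusted p = 0.139), in a range of 0.00463 to 0.139.

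Aldoa rose by 0.31 ± 0.08, 0.29 ± 0.08 and 0.26 ± 0.08 and Eno1 by 0.42 ± 0.07, 0.24 ± 0.07 and 0.28 ± 0.07 log2 units in KO, Het and WT memory cells. Aldoa in WT lost its call without WT naive replicate 2 (0.24, adjusted p = 0.0523), 3 (0.23, 0.0604) or 4 (0.21, 0.1) or WT memory replicate 1 (0.23, 0.0548), over a range of 0.00326 to 0.1. Eno1 in Het lost it without Het naive replicate 4 (0.19, adjusted p = 0.0745), in a range of 0.00235 to 0.0745. Pkm (-0.03 ± 0.07, 0.03 ± 0.07 and 0.11 ± 0.07), Hk1 and Pfkl passed in no genotype.

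Hk2 and Ldha rose in memory cells of Het and WT and were not called in KO. For Hk2 the log2 fold changes of memory over naive were 0.04 ± 0.17 in KO, 1.35 ± 0.19 in Het and 1.11 ± 0.19 in WT cells (adjusted p = 0.95, 4.50e-07 and 2.11e-05, edgeR). The KO and WT values of Hk2 differ by the interaction already given. In KO cells the memory libraries (4.88 to 7.05 CPM) and naive libraries (4.98 to 6.30 CPM) overlapped, whereas in WT the memory libraries (5.36 to 7.98 CPM) lay above the naive ones (3.12 to 3.32 CPM). Ldha had 0.21 ± 0.10 in KO, 0.42 ± 0.10 in Het and 0.40 ± 0.10 in WT (adjusted p = 0.151, 0.0019 and 0.00381, edgeR), but the KO and WT values of Ldha did not differ by the interaction test (-0.19 ± 0.14, adjusted p = 0.818, edgeR). Slc2a3 had the reverse pattern, with 0.44 ± 0.12 in KO (called), 0.31 ± 0.12 in Het and 0.05 ± 0.12 in WT, and an interaction of 0.39 ± 0.17 that did not pass (adjusted p = 0.426, edgeR). Slc2a3 was called in Het without Het naive replicate 1 (0.41, adjusted p = 0.0253), in a range of 0.0253 to 0.272.

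Between naive cells and CD8 single-positive thymocytes the pathway split. The late enzymes Eno1, Pkm and Ldha and the hexokinase Hk2 were lower in naive cells in all 3 genotypes, while Aldoa and Slc2a1 were higher. Of the 10 genes 3 rose and 4 fell in KO (44.1% of all genes were called, 22.4% as higher and 21.7% as lower), 3 rose and 4 fell in Het (39.5%, with 19.8% and 19.7%), and 2 rose and 4 fell in WT (32.2%, with 15.3% and 16.9%). With so many genes called, a share of 6 or 7 members among 10 is read against these backgrounds.

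Pkm was at 418 to 439 CPM in KO naive cells and 652 to 733 CPM in KO thymus, and at 399 to 448 CPM in WT naive cells and 658 to 717 CPM in WT thymus, with no overlap. Its log2 fold changes of naive over thymus were -0.67 ± 0.07, -0.63 ± 0.07 and -0.68 ± 0.08 in KO, Het and WT (adjusted p = 5.07e-10, 3.04e-09 and 2.66e-09, edgeR). Hk2 fell more, by 1.60 ± 0.16, 1.56 ± 0.18 and 1.38 ± 0.20 log2 units in KO, Het and WT naive cells. Eno1 fell by 0.59 ± 0.07, 0.28 ± 0.07 and 0.36 ± 0.08 and Ldha fell by 0.49 ± 0.10, 0.51 ± 0.10 and 0.34 ± 0.11. Ldha in WT missed the threshold without WT naive replicate 4 (-0.28, adjusted p = 0.0629), in a range of 0.00443 to 0.0629.

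Aldoa was at 185 to 217 CPM in KO naive cells and 137 to 158 CPM in KO thymus, and at 214 to 265 CPM in WT naive cells and 130 to 169 CPM in WT thymus. The naive values lay above the thymus values in each of the 3 genotypes, with log2 fold changes of 0.45 ± 0.08, 0.54 ± 0.08 and 0.64 ± 0.08 in KO, Het and WT. Aldoa and Eno1 moved in opposite directions between thymus and spleen, within the same 3 genotypes. Slc2a1 had 0.27 ± 0.11, 0.63 ± 0.11 and 0.33 ± 0.12, of which the Het value was called in all 17 alternatives. The KO value of Slc2a1 was called in 8 of 18: it missed without KO thymus replicate 1, 3 or 4 (adjusted p = 0.0892, 0.0659 and 0.116), without KO naive replicate 3 or 4 (0.113 and 0.155) and without both (0.08 log2 units, 0.648), in a range of 0.0121 to 0.648. With all libraries kept, the KO value also missed under DESeq2 (adjusted p = 0.0553). In edgeR it missed with RLE scaling (0.0551) and with a filter of at least 1 CPM in 4 libraries (0.0504). A fit of the compared libraries alone missed as well (0.0642, edgeR). The WT value of Slc2a1 was called in 11 of 16, and missed without WT thymus replicate 2 or 3 (0.0619 and 0.0921) or WT naive replicate 3 or 4 (0.0604 and 0.0634), in a range of 0.00909 to 0.0921. It also missed with no filter on low counts (adjusted p = 0.0528, edgeR).

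Slc2a3 and Pfkl were called in 1 genotype each. Slc2a3 rose in KO naive cells (0.47 ± 0.12), against 0.24 ± 0.12 in Het and 0.14 ± 0.14 in WT, and Pfkl rose in Het naive cells (0.46 ± 0.11), against 0.12 ± 0.11 in KO and 0.15 ± 0.12 in WT. Hk1 was called lower in Het naive cells only without Het thymus replicate 1 (-0.19, adjusted p = 0.0427) or 3 (-0.19, adjusted p = 0.0388), in a range of 0.0388 to 0.617. All 20 tested proliferation genes were lower in naive cells than in thymus in each genotype. Of all tested genes 21.7, 19.7 and 16.9% were called lower there in KO, Het and WT. The part of the proliferation genes in the lower levels of Hk2, Eno1, Pkm and Ldha was not tested. Between memory and naive cells 10, 4 and 3 of these 20 genes rose in KO, Het and WT, with 0 lower. Of all tested genes 8.69, 8.31 and 7.68% were called higher in that comparison.

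**Figure D4:**
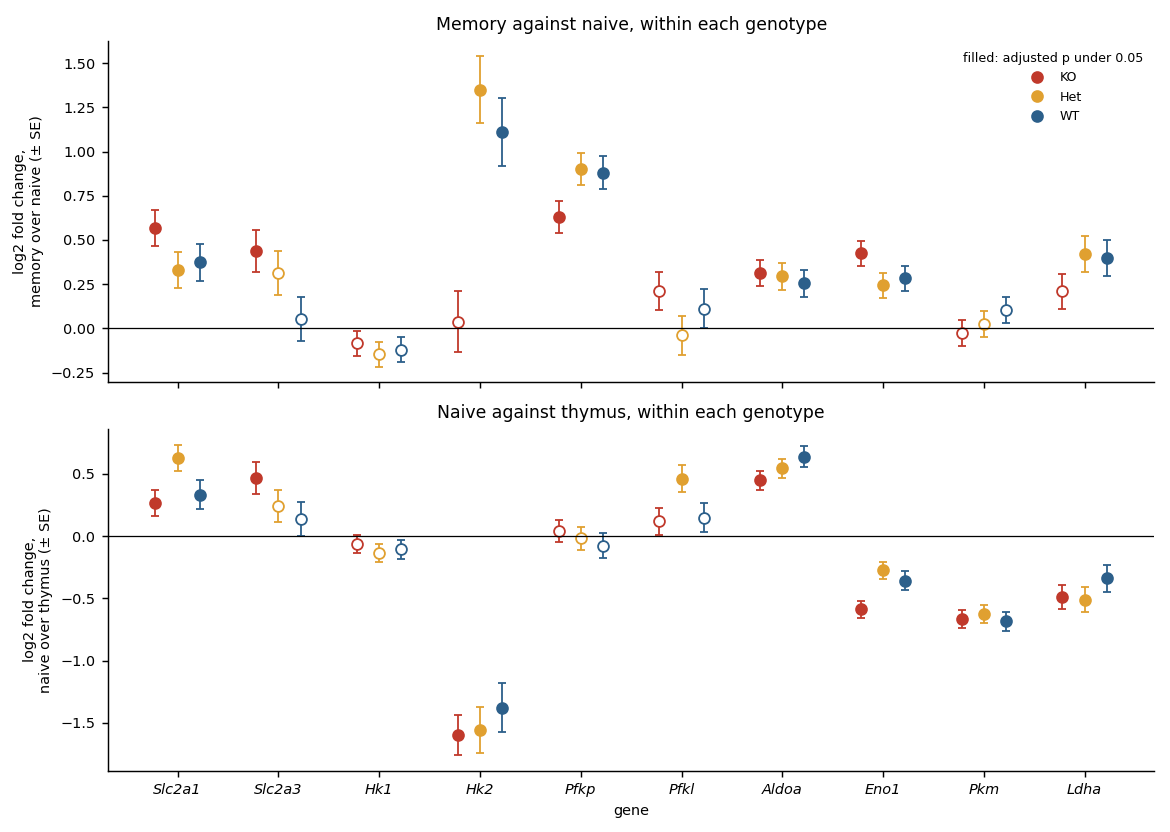
Log2 fold change of memory over naive cells (top) and of naive cells over thymus (bottom), on the y axis with its SE, for each of the 10 genes (x axis) in KO, Het and WT from left to right; filled points passed an adjusted p of 0.05. Hk2 is near 0 in KO and above 1 in Het and WT in the top panel, and below -1 in all 3 genotypes in the bottom panel.

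Other genes of glucose metabolism, from lists chosen with earlier results of these data known, included larger changes than the 10 genes themselves. Members named below are those whose call held in every alternative analysis. Of 12 other glycolytic enzymes tested, 2 rose and 0 fell in KO thymus, 2 rose and 3 fell in KO naive cells, and 3 rose and 4 fell in KO memory cells. Of all tested genes 18.6, 18.2 and 22.2% were called in these subsets, and with 3 to 26 genes to a list the counts of this and the following lists are a description and set none of them apart from other genes. The minor enolase Eno2, known from neurons, rose in all 3 subsets. Eno2 averaged 9.34 ± 2.005 CPM in KO thymus, 5.09 ± 0.941 CPM in Het thymus and 4.43 ± 0.646 CPM in WT thymus (SD, n = 4, 4 and 3). In naive cells Eno2 averaged 10.9 ± 1.81, 2.38 ± 0.546 and 1.70 ± 0.26 CPM, and in memory cells 8.65 ± 1.28, 1.23 ± 0.259 and 0.729 ± 0.263 CPM, in KO, Het and WT (SD, n = 4 each). KO values lay above all WT values in each subset, and the log2 fold changes were 1.06 ± 0.19, 2.68 ± 0.21 and 3.58 ± 0.23 in thymus, naive and memory cells.

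Eno1 was the dominant enolase throughout. Per exon length Eno2 made up 2.50% of enolase counts in KO thymus and 1.25% in WT thymus, 4.25% and 0.607% in KO and WT naive cells, and 2.58% and 0.215% in KO and WT memory cells. Tpi1, which interconverts the triose phosphates, rose in KO thymus (0.80 ± 0.12). Pgk1, phosphoglycerate kinase, fell in KO naive (-0.39 ± 0.07) and KO memory cells (-0.45 ± 0.07), although 53.2% of its 65-base windows also occur in another gene. The brain-type aldolase Aldoc rose in KO memory cells (1.85 ± 0.38), and the ADP-dependent glucokinase Adpgk fell there (-0.43 ± 0.10).

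Of 11 tested genes of gluconeogenesis and glycogen use, 3 rose and 0 fell in KO thymus, 2 rose and 0 fell in KO naive cells, and 2 rose and 2 fell in KO memory cells, beside 18.6, 18.2 and 22.2% of all genes. Pygl, the liver glycogen phosphorylase, averaged 8.51 CPM in KO thymus and 1.997 CPM in WT thymus, 14.0 and 1.67 CPM in KO and WT naive cells, and 21.4 and 1.81 CPM in KO and WT memory cells. No KO library overlapped a WT one, and the log2 fold changes of Pygl were 2.05 ± 0.25, 3.03 ± 0.25 and 3.56 ± 0.23. Pck2, the mitochondrial phosphoenolpyruvate carboxykinase, had 1.33 ± 0.15, 1.49 ± 0.13 and 2.15 ± 0.13 in thymus, naive and memory cells. The muscle phosphorylase Pygm rose in KO thymus (0.83 ± 0.13). In KO memory cells Pygm was called lower instead, with alternative values from -0.55 to -0.38. That call falls outside the naming rule, as 1 of 17 alternatives, without KO memory replicate 1, lost it.

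Of 15 genes of pyruvate and lactate fate 3 fell and 0 rose in each subset, which is near the shares of all genes called (18.6, 18.2 and 22.2%). Pdk1, a kinase that shuts off pyruvate dehydrogenase, averaged 79.0 CPM in KO thymus and 142 CPM in WT thymus, 114 and 182 CPM in KO and WT naive cells, and 71.5 and 130 CPM in KO and WT memory cells. The log2 fold changes of Pdk1 were -0.84 ± 0.12, -0.68 ± 0.11 and -0.86 ± 0.11. Pdha1, a subunit of the dehydrogenase that Pdk1 inhibits, fell in thymus (-0.34 ± 0.08) and memory cells (-0.29 ± 0.07). Pcx, pyruvate carboxylase, which had few counts, fell in naive (-1.23 ± 0.27) and memory cells (-1.29 ± 0.24), and Pdk2 fell in thymus (-0.61 ± 0.12).

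Of 7 genes of the pentose phosphate pathway 1 rose in KO thymus, 2 fell in KO naive and 3 fell in KO memory cells, Rpe among them in memory (-0.23 ± 0.07). Of 5 phosphofructokinase regulators 0 were called in any subset. Of 3 other sugar transporters with enough counts 0 were called in thymus, and 1 rose in naive and 1 in memory cells.

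Of 26 tested regulators of the pathway, 3 rose and 6 fell in KO thymus, and 3 rose and 1 fell in each of KO naive and KO memory cells, where the backgrounds were again 18.6, 18.2 and 22.2% of all genes from thymus to memory. Epas1, which encodes the hypoxia-inducible factor HIF2A, averaged 8.50, 19.1 and 32.0 CPM in KO thymus, naive and memory cells, against 1.03, 4.08 and 3.05 CPM in WT. The log2 fold changes of Epas1 were 2.96 ± 0.34, 2.33 ± 0.26 and 3.39 ± 0.25. Hif1a, its paralogue and the better known activator of glycolytic genes, fell in KO naive (-0.36 ± 0.08) and KO memory cells (-0.92 ± 0.08). Its thymus value was close to the threshold (-0.23 ± 0.08, adjusted p = 0.0454, edgeR). In memory cells Hif1a was at 43.8 to 55.7 CPM in KO, 80.8 to 96.3 CPM in Het and 89.0 to 101 CPM in WT, with no overlap of KO with either. Egln3, a prolyl hydroxylase that marks these factors for breakdown, rose in KO memory cells (2.11 ± 0.25), and the kinase Akt1 did so by a small amount (0.33 ± 0.07). Foxo3 fell in KO thymus (-0.41 ± 0.07), and Irf4 rose in KO naive cells (1.36 ± 0.32). Of 8 tested hypoxia-responsive genes 1, 2 and 2 rose and 1 fell in each subset, with Vegfa higher in KO thymus (2.23 ± 0.40) and KO naive cells (2.14 ± 0.45) at low counts. Pdk1, a member of that list as well, was the one that fell.

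**Figure D5:**
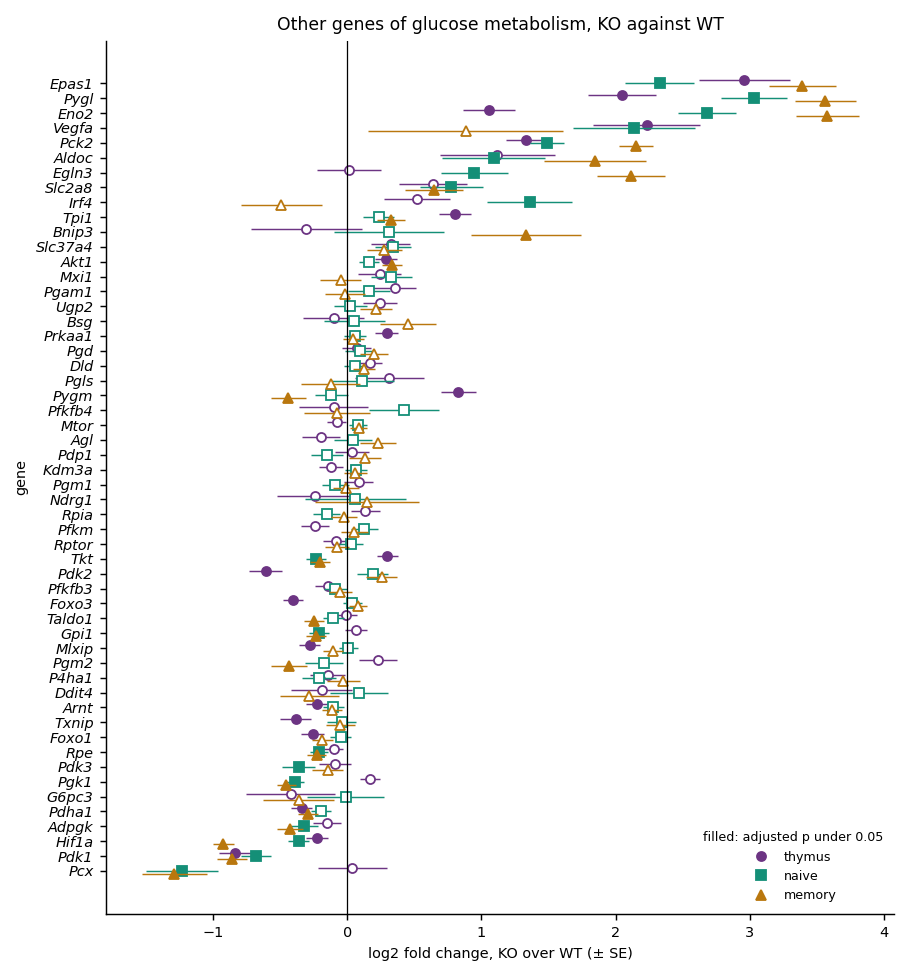
Log2 fold change of KO over WT (x axis, with its SE) in thymus, naive and memory cells for the other genes of glucose metabolism (y axis) that the naming rule selected in any comparison described; filled symbols passed an adjusted p of 0.05. Eno2, Pygl, Epas1 and Pck2 lie to the right in all 3 subsets and Pdk1 to the left.

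Between memory and naive cells 4 of the 12 other glycolytic enzymes rose in each genotype, and 1, 2 and 1 fell in KO, Het and WT, where 17.3, 16.9 and 15.1% of all genes were called. Gpi1, Tpi1 and Pgk1 rose in each, Gpi1 by 0.41 ± 0.07, 0.42 ± 0.07 and 0.44 ± 0.07, Tpi1 by 0.70 ± 0.11, 0.42 ± 0.11 and 0.60 ± 0.11 and Pgk1 by 0.32 ± 0.07, 0.34 ± 0.07 and 0.38 ± 0.07 log2 units in KO, Het and WT. Of the 26 regulators 2 rose and 7, 6 and 4 fell, with Rptor, a subunit of mTOR complex 1, higher (0.52 ± 0.09, 0.65 ± 0.09 and 0.62 ± 0.09) and Foxo1 lower (-0.51 ± 0.08, -0.50 ± 0.08 and -0.37 ± 0.08) in memory cells of KO, Het and WT. Between naive cells and thymus 1, 2 and 1 of the 12 enzymes rose and 4, 5 and 5 fell in KO, Het and WT, near the 44.1, 39.5 and 32.2% of all genes called there. Pgk1 was lower in naive cells (-1.10 ± 0.07, -0.63 ± 0.07 and -0.54 ± 0.08), while Txnip, which restrains glucose uptake, was higher (1.04 ± 0.11, 0.80 ± 0.11 and 0.70 ± 0.12).

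The 10 genes did not share 1 pattern. Over the 9 group means, 22 of their 45 pairs were positively correlated and the median r was -0.02. Within groups 29 of 45 were positive, with a median of 0.08 and a range of -0.37 to 0.52 over the 35 libraries, which share depth and preparation within a library. Likeness to other genes was measured as the root mean square difference of centred mean log2 CPM over the 9 groups, where smaller is closer. Hk2, whose own SD over the groups was 0.75, was nearest to Hectd2 at 0.26, then Mx1 at 0.28 and Luzp1 at 0.29. The nearest gene to both Slc2a1 (0.093) and Aldoa (0.064) was Klhl7, followed by Btbd11 and Tmem62 for Slc2a1 and Ap1g2 and Mks1 for Aldoa. Pkm was close to Tcof1 (0.045) and Memo1, Eno1 to Sae1 (0.054), Ndufv2 and Gtf2h4, and Ldha to Kars (0.069), Ndufv2 and Paics. Hk1 was closest to Qk (0.031), Cpsf6 and Prrc2c, Pfkp to Cdk5rap3 (0.082), Sla and Sipa1, Pfkl to Slc35b4 (0.057), Apeh and Preb, and Slc2a3 to Abhd2 (0.082), Ppil2 and Fbxl5.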

How the data were processed

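CD8 T cells of thymus and spleen were sorted, and mRNA libraries were made with a stranded TruSeq kit from Trizol-extracted RNA and read as 65-base single reads, per the labels' protocols. TopHat2 2.1.0, TopHat, HTSeq 0.9.1 and the builds GRCm38 and mm10 are named in the submitters' processing notes. The annotation release and strand setting of the counting are not given in the sources used here. The authors deposited raw counts per Ensembl gene, and 10296 of 52636 genes passed edgeR's filterByExpr. Symbols, positions and exon lengths came from GENCODE M21 on GRCm38, promoters from RefSeq on GRCm38.p6.

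All 35 libraries entered 1 fit in edgeR 4.0.16 (R 4.3.3), with TMM scaling, the robust quasi-likelihood F test, 9 group means, 26 residual degrees of freedom and Benjamini-Hochberg adjustment over all tested genes at 0.05. The SE of a log2 fold change is its size divided by the square root of F. DESeq2 1.42.0 was an alternative, beside RLE scaling, mean log centring, other filters, a non-robust fit, a fit of the compared libraries alone, a sex covariate, a replicate block and leaving out each library. Sex, read from transcripts, gave 24 male and 11 female libraries, with each group holding both. In KO and Het, replicate 3 was the female library in each of the 3 subsets. In WT, replicates 2 and 3 were female in naive and memory cells, but WT thymus replicate 3 was male. The labels do not say whether same-numbered libraries come from the same mouse. The main fit took all libraries as independent. The test was checked on simulated counts.

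The 10 genes and all lists were chosen with earlier results of these data known. The text names all 10 genes, and of each other list up to 4 called genes with the lowest adjusted p, keeping those whose call held in every alternative. The 3 nearest genes to each member are named by the smallest difference of group profiles, apart from 1 gene that is not reported here. Leaving out naive KO replicates 3 and 4 together was chosen after seeing the data. Same-numbered libraries deviated together in every pair (r over 0.1) for KO against Het in naive cells (0.144 to 0.262) and for memory against naive in WT (0.206 to 0.31), and the block changed no member's call in those. In no group did 2 libraries agree within sampling noise.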

Additional observations from a re-analysis of the deposited data

Results flagged for a closer look

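The KO over WT effect on Hk2 differed between memory and naive cells (-1.07322 log2 units, edgeR interaction adjusted p = 0.0139), a difference that came to an adjusted p of 0.112 without naive KO replicates 3 and 4.

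In 3 of 80 sets of 4 libraries 1 library stood apart from the rest by more than Dixon's critical ratio, where chance gives about 1 in 20. Hk1 was at 181.229 CPM in KO naive replicate 1, where the other 3 libraries lay between 157 and 160.0 CPM. Hk2 was at 4.13645 CPM in Het naive replicate 3, where the others lay between 2.46 and 2.58 CPM. Pfkl was at 31.7003 CPM in KO memory replicate 1, below the others at 35.7 to 36.4 CPM.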

How the results depend on the processing

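Of 3070 values of the 10 genes under the alternatives, 2986 stayed on their side of the threshold, 52 lost a call, 32 gained one and 0 called values reversed. Of the 2986, 114 that were called in neither setting changed sign. The cause of each change below was not tested.

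With mean log centring the members called in KO against WT were 3, 4 and 3 in the subsets from thymus to memory. Each call this setting added was lower in KO. These were Slc2a3 and Hk1 in thymus, Hk1, Aldoa and Eno1 in naive cells, and Hk1, Aldoa and Pkm in memory cells. The rises of Pfkp in naive cells (0.23, adjusted p = 0.0799, edgeR) and Slc2a3 in memory cells (0.27, adjusted p = 0.0935, edgeR) lost their calls. Fitting the compared libraries alone gave 2 in thymus and 2 in memory cells, and 1 in KO against Het naive cells. The replicate block, the sex covariate and DESeq2 each gave 2 in KO against WT memory, with Pfkl added. No filter on low counts gave 1 in KO against Het naive. Without naive KO replicates 3 and 4, KO against WT naive had 1 member and 1240 genes called, KO against Het naive 1 member, and the memory minus naive difference 0 members.

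Over all genes, Het against WT in memory cells called 2 with RLE scaling, 3 without a filter, 0 with the non-robust fit, 3 with the replicate block, 2 with the sex covariate, 2 with mean log centring and 2 with DESeq2, and Het against WT naive 1 without a filter. Leaving out 1 library at a time gave 0 to 2 genes for Het against WT in thymus and 0 to 1 in memory, and members called of 2 to 5 (KO against Het, thymus), 1 to 2 (KO against Het, naive), 0 to 1 (KO against Het, memory), 2 to 3 (KO against WT, naive) and 0 to 1 (KO against WT, memory). It gave 4 to 7 in memory against naive Het and 4 to 6 in naive against thymus WT. The replicate block also gave Aldoa in KO against WT naive (adjusted p = 0.0433, range 0.00437 to 0.269) and Eno1 in KO against Het thymus (0.0416, range 0.0131 to 0.45). In those comparisons same-numbered libraries were positively correlated, but not every pair had r over 0.1. The r was 0.0817 to 0.287 for KO against WT naive and 0.0476 to 0.236 for KO against Het thymus. Hk2 has the fewest counts, and its naive values rest on 15 to 76 reads per library.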
